A study of Homo sapiens with 2 samples.

Results

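The insulin-like growth factor (IGF) and insulin axis was followed in Hep3B, an established human hepatocellular carcinoma line, through 10 genes picked out by symbol, a set proposed with earlier results of these data known. These were the ligand IGF2, the receptors IGF1R, INSR and IGF2R, the receptor substrates IRS1 and IRS2, and the binding proteins IGFBP1 to IGFBP4, which are 10 of the 43424 gene symbols in the files. One library came from cells given the solvent dimethyl sulfoxide (DMSO) and 1 from cells given an extract of the plant Glehnia littoralis (GLE). Both came from wild-type cells by the labels, from 500 ng of total RNA, with a kit that counts messages at their 3′ ends. The doses and times in the labels belong to a viability assay, and the sources used here do not give those of the sequenced cells.

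IGF2 and insulin act through the tyrosine kinase receptors encoded by IGF1R and INSR, which phosphorylate the docking proteins IRS1 and IRS2 and so recruit PI3-kinase, AKT and mTOR. AKT keeps FOXO transcription factors out of the nucleus, and IRS2 and IGFBP1 are textbook liver genes that FOXO factors drive and insulin represses. The binding proteins hold IGFs in the circulation and at the cell surface, and IGF2R, the cation-independent mannose 6-phosphate receptor, takes IGF2 to the lysosome.

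IRS2 and IGFBP1 were higher in the GLE library, and the receptors INSR, IGF1R and IGF2R, the substrate IRS1 and the binding protein IGFBP3 were lower. IGFBP1 had a ratio of GLE over DMSO of 5.57 and IRS2 of 3.07, while the other 5 well-counted members lay between 0.446 and 0.676. IGF2, IGFBP2 and IGFBP4 had few counts in both libraries. Each condition had 1 library, so the differences have no replicate check, no p-value was computed, and culture-to-culture variation cannot be told apart from an effect of the extract.

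The promoters of 4 members are shown because they belong to genes that lay on opposite sides. IRS2 is the substrate that was higher, and IRS1, INSR and IGF2R were lower. RefSeq sequences of GRCh38.p14, from 250 bases before to 50 after the start site, matched 8 of the 10 members by symbol, with 3 start sites for IGFBP2. IGF2 and IGFBP1 were not matched. The IRS2 window lies at chr13:109786534-109786833 (minus strand), the IRS1 window at chr2:226799771-226800070 (minus strand), the INSR window at chr19:7294365-7294664 (minus strand) and the IGF2R window at chr6:159968832-159969131 (plus strand). Capitals mark TGTTTTG, the core of the insulin response element, and CACGTG, the E-box, and in INSR also GGGCGG, the GC box.
IRS2: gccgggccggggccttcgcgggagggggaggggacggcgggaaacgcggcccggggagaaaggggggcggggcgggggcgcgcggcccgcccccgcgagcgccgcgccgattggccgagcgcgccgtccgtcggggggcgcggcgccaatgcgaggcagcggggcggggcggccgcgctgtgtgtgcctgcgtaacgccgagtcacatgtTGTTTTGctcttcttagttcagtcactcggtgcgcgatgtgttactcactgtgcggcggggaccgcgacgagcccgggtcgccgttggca
IRS1: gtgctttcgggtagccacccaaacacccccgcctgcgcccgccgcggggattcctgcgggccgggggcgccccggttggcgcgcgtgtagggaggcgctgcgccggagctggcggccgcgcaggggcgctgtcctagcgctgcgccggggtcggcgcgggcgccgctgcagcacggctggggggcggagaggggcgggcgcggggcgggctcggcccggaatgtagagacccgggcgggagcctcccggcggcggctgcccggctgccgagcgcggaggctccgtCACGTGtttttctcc
INSR: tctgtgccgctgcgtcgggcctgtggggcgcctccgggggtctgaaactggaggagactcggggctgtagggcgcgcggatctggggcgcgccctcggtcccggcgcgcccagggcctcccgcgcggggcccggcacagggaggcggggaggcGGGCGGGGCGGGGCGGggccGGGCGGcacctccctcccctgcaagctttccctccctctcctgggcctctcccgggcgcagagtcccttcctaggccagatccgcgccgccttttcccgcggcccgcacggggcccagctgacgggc
IGF2R: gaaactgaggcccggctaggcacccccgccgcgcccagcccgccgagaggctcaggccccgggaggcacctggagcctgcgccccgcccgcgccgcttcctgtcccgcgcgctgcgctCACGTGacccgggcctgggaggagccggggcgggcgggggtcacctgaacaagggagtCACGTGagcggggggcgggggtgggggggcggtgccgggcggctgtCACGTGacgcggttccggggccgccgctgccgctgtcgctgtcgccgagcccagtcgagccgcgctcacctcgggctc

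The letters TGTTTTG or their complement, searched on both strands, occurred in the IRS2 window, where the match begins 40 bases before the start site, and in none of the other windows of members. They occurred in 4.93% of 34943 promoters of this length. CACGTG occurred 3 times in the IGF2R window, beginning 132, 74 and 28 bases before the start site. Of all promoters, 7.23% held CACGTG once or more and 0.0944% held it 3 times or more. IRS1 had 1 CACGTG, 36 bases after its start site. GGGCGG had 6 matches in IGF2R, 5 in IRS2, 4 each in INSR and IRS1, 2 each in IGF1R, IGFBP3 and IGFBP4, and 1, 1 and 0 in the 3 IGFBP2 windows. Of all promoters, 44.9% had at least 1 match, 26.7% at least 2 and 15.7% at least 3. Neither TGTTTAC, the forkhead core, nor TGATGNAAT, the C/EBP-ATF element, was found in any member's window. No match of one motif overlapped that of another in these windows, though neighbouring GGGCGG matches can share bases. The share of G and C was 75.7% in IRS2, 79.7% in IGF1R, 79.3% in IRS1, 78.7% in IGF2R, 78.3% in INSR, 74.7% in IGFBP3 and 74.0% in IGFBP4, against a median of 58.7% over all promoters. The IGFBP2 windows had 55.3%, 70.0% and 56.7%, so 2 of these lay below that median. These matches describe the sequence and are not evidence of binding.

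The DMSO library held 5618328 counts and the GLE library 3636351. Counts were divided by library sizes adjusted with the trimmed mean of M-values (TMM) and are given as CPM. Intervals of a ratio are exact 95% Clopper-Pearson intervals of counting error, which treat each read as an independent molecule, and those of a CPM value are exact Poisson intervals. Genes with at least 30 counts over both libraries are called measured, and 11068 genes and 7 of the 10 members were. A level of 3 counts, taken as a floor, was 0.519 CPM in the DMSO and 0.848 CPM in the GLE library. The exact Poisson upper limit of a count of 0 is higher, 0.638 CPM in the DMSO library. All 9 hepatocyte and epithelial markers examined (ALB, AFP, APOA1, APOB, TTR, SERPINA1, HNF4A, KRT8 and KRT18) were measured, with summed levels, mostly from ALB, of 7715 CPM in the DMSO and 4836 CPM in the GLE library. HNF4A was 2.69-fold (2.30 to 3.16) and APOB 2.61-fold (2.49 to 2.74) lower, and SERPINA1 was 1.45-fold higher (1.31 to 1.62). Their part in the members' differences was not tested.

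Of the 7 measured members, IRS2 and IGFBP1 (2 genes) passed 2-fold upward and IRS1 (1 gene) passed it downward. The shares over all measured genes were 9.54% upward and 10.5% downward. Scaled by total counts, 2 members passed upward and 2 downward, INSR being added. Intervals excluded 1 upward for 2 members and downward for 5, against 27.7% and 30.1% of all measured genes, or 30% and 32.1% of genes with at least 100 counts. The whole interval lay above a ratio of 2 for IRS2 and IGFBP1, as for 3.82% of measured genes, and below a ratio of 0.5 for 0 members, as for 2.86%. The median log2 ratio of the 7 members was -0.60, and that of all measured genes -0.04.

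**Figure D1:**
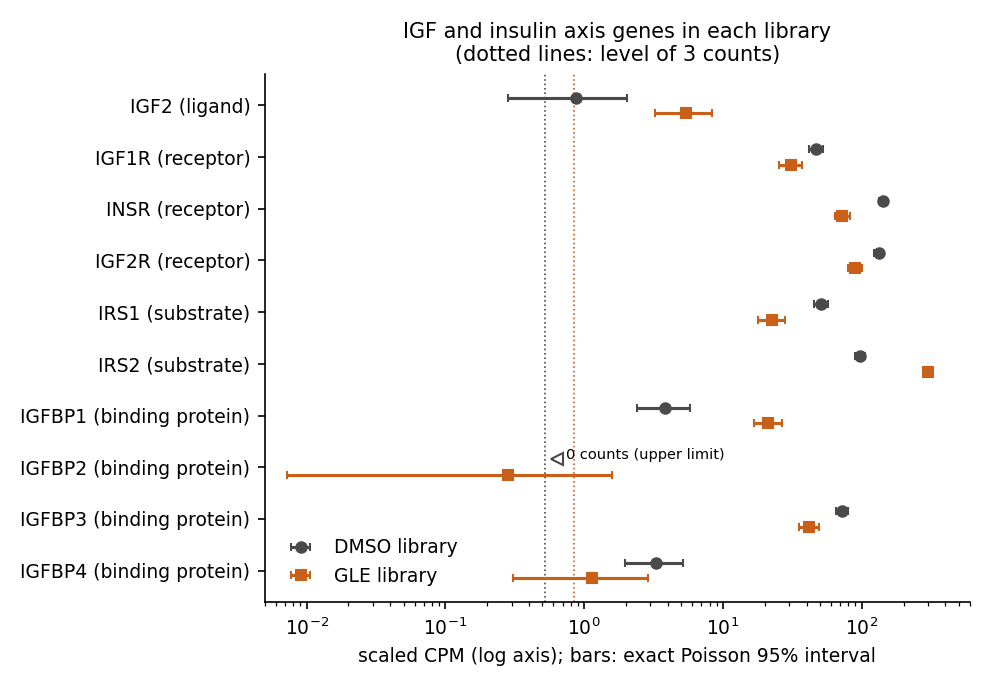
Scaled CPM of the 10 genes on a log axis in the DMSO (circles) and GLE (squares) libraries, with exact Poisson 95% intervals and dotted lines at the level of 3 counts. IRS2 at 299.5 CPM in the GLE library stands above its DMSO value of 97.4 CPM, and no value of IGF2, IGFBP2 or IGFBP4 exceeds 5.37 CPM.

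The ligand IGF2, a fetal growth factor that many liver tumours express, lies on chromosome 11 (2129117 to 2149566, GRCh38, minus strand). It had 5 counts in the DMSO and 19 in the GLE library, or 0.865 CPM (0.281 to 2.02) and 5.37 CPM (3.24 to 8.39). The ratio was 6.21 with an interval of 2.24 to 21.3, which excludes 1, but IGF2 did not reach the minimum of 30 counts. In RefSeq the read-through gene INS-IGF2, which spans INS and IGF2, ends at the same base, 2129117, as IGF2. In GENCODE release 29 it shares 1580 of the 7686 exonic bases of IGF2 (20.6%), the same-strand non-coding gene AC132217.1 shares 373 and the antisense gene IGF2-AS shares 456. The sources used here do not give the annotation or how reads falling on more than 1 gene were counted, so the counts of IGF2 need not measure its level. INS-IGF2 had 0 counts in both libraries, and IGF2-AS had 7 and 3.

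The receptors were all lower in the GLE library. INSR, the insulin receptor on chromosome 19 (7112265 to 7294414), had 827 counts in the DMSO and 256 in the GLE library, or 143 CPM (134 to 153) and 72.4 CPM (63.8 to 81.8). The ratio of 0.506 (0.438 to 0.583) is 1.98-fold lower, just inside 2-fold. By log2 ratio with 0.5 added to each count, 1165 of the 11068 measured genes were lower than INSR. Scaled by total counts the INSR ratio was 0.478, beyond 2-fold, so its side of that line depends on the scaling.

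IGF1R, the receptor that carries most IGF signalling, lies on chromosome 15 (98648539 to 98964530). It had 271 and 109 counts, or 46.9 CPM (41.5 to 52.8) in the DMSO and 30.8 CPM (25.3 to 37.2) in the GLE library. It was 1.52-fold lower (1.21 to 1.92). IGF2R, the clearance receptor without a kinase, lies on chromosome 6 (159969082 to 160111504) and had 766 and 317 counts. Its level was 133 CPM (123 to 142) in the DMSO and 89.7 CPM (80.1 to 100.1) in the GLE library, 1.48-fold lower (1.30 to 1.69). The ratio intervals of all 3 receptors lay below 1, as did those of 32.1% of all genes with at least 100 counts.

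How far the receptors differed from one another was computed as the ratio of one gene divided by that of the other, in which the scaling of the libraries cancels. This was done for 5 pairs of members within a role, with intervals not adjusted for their number. The ratio of IGF2R was 1.34 times that of INSR (1.10 to 1.63). IGF1R over INSR was 1.30 (0.988 to 1.70) and IGF1R over IGF2R 0.972 (0.743 to 1.27), and both intervals include 1. Summed over the 3 receptors, counts were 1864 and 682, a ratio of 0.598 (0.547 to 0.653). IGF1R made up 24.7% (22.2 to 27.3) of IGF1R and INSR counts in the DMSO library and 29.9% (25.2 to 34.8) in the GLE library, intervals that overlap.

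**Figure D2:**
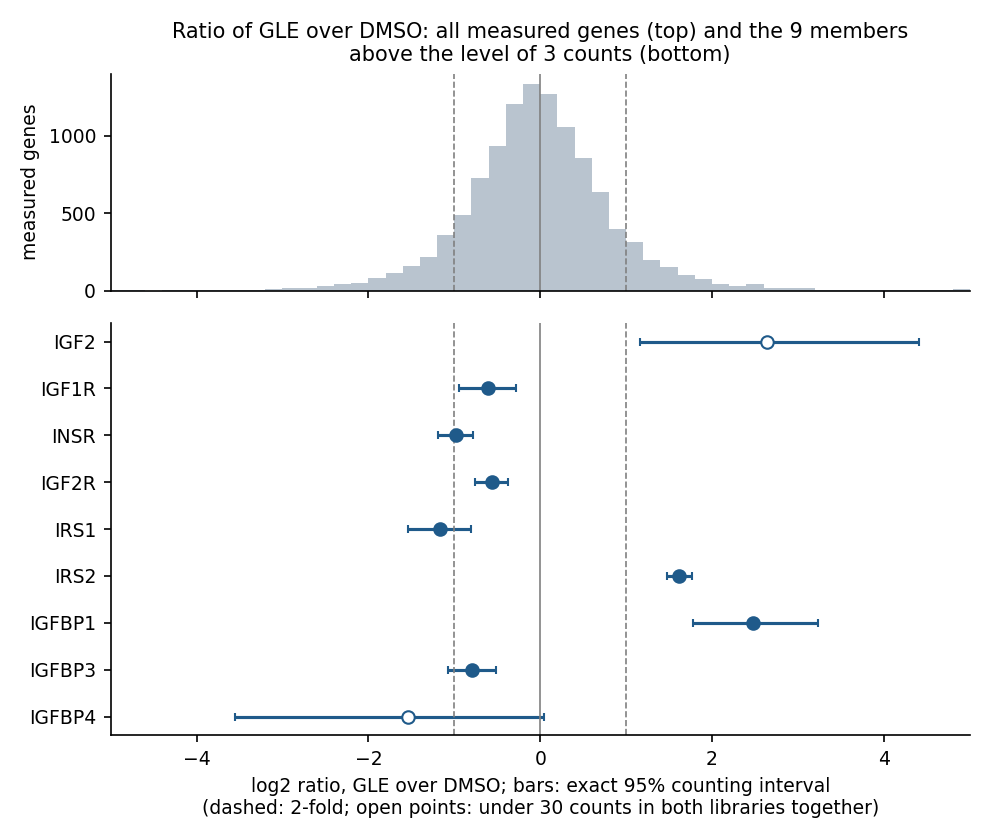
Histogram of the log2 ratio of GLE over DMSO for 11068 measured genes (top; values beyond 5 are drawn at the ends) and the ratios of 9 members with 95% counting intervals (bottom; open points had under 30 counts). IRS2 and IGFBP1 lie to the right of the 2-fold line with their whole intervals, and INSR lies close to the 2-fold line on the left.

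The substrates IRS1 and IRS2, docking proteins with the same place in the pathway, lay on opposite sides. IRS2, on chromosome 13 (109752695 to 109786583), had 563 counts in the DMSO and 1059 in the GLE library. Its level was 97.4 CPM (89.6 to 106) in the DMSO and 299.5 CPM (282 to 318) in the GLE library, 3.07-fold higher (2.77 to 3.41). Of the measured genes, 377 had a higher ratio than IRS2. IRS1, on chromosome 2 (226731312 to 226799820), had 293 and 80 counts, or 50.7 CPM (45.1 to 56.9) and 22.6 CPM (17.9 to 28.2). It was 2.24-fold lower (1.74 to 2.91), and 835 measured genes had a lower log2 ratio by the same rule.

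IRS2 took 65.8% (62.5 to 68.9) of the counts of both substrates in the DMSO library and 93.0% (91.3 to 94.4) in the GLE library. The ratio of IRS2 divided by that of IRS1 was 6.88 (5.24 to 9.12), a value that the scaling cannot move. In GENCODE release 29 an antisense transcript, AL162497.1, shares 115 (1.41%) of the exonic bases of IRS2, and no other gene's exons overlap those of IRS1. Levels were not ranked between genes, and shares are of counts.

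The binding proteins also lay on both sides. IGFBP1, a small secreted protein that liver releases in fasting and stress, lies on chromosome 7 (45888488 to 45893660). It had 22 counts in the DMSO and 75 in the GLE library, or 3.81 CPM (2.39 to 5.76) and 21.2 CPM (16.7 to 26.6). The ratio was 5.57 (3.42 to 9.41), and 120 measured genes had a higher one. With its DMSO count and a ratio of 1, IGFBP1 would have had 35.5 counts in all and so would have passed the minimum of 30.

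IGFBP3, the main carrier of IGFs in serum, lies 18584 bases from IGFBP1 on chromosome 7 (45912245 to 45921272), on the opposite strand. It had 419 and 148 counts, or 72.5 CPM (65.7 to 79.8) in the DMSO and 41.9 CPM (35.4 to 49.2) in the GLE library. It was 1.73-fold lower (1.43 to 2.10). The ratio of IGFBP1 divided by that of its neighbour was 9.61 (5.67 to 16.9). IGFBP1 took 4.78% (3.02 to 7.15) of the counts of IGFBP1 to IGFBP4 in the DMSO and 32.9% (26.8 to 39.4) in the GLE library, and IGFBP3 took 91.1% (88.1 to 93.5) and 64.9% (58.3 to 71.1).

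IGFBP4, on chromosome 17 (40443450 to 40457725), a binding protein that inhibits IGF action, had 19 and 4 counts. Its ratio of 0.344 had an interval of 0.0851 to 1.04, so a difference was not detectable at this depth. IGFBP2, on chromosome 2 (216632828 to 216664436), had 0 counts in the DMSO library and 1 in the GLE library, below the level of 3 counts in each, and no ratio is given. Summed over the 4 binding proteins, counts were 460 and 228, a ratio of 0.810 (0.688 to 0.951).

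Markers of other cell types were examined beside the secreted members. Of 5 fibroblast markers (COL1A1, COL1A2, PDGFRB, LUM and DCN), 1 was measured, and their sum was 3.46 CPM in the DMSO and 18.9 CPM in the GLE library, with DCN at 0 in the DMSO library. COL1A1 had 4 and 29 counts. This sum was higher in the library in which IGF2 and IGFBP1 were higher, and its part in those results was not tested. Of 4 endothelial markers, VWF, KDR and CDH5 had 0 counts in both libraries and PECAM1 had 36 and 1. Of 4 leukocyte markers, CD3E had 0 counts in both and PTPRC 1 and 3. CD68 had 117 and 96 counts, a ratio of 1.34 (1.01 to 1.77), and LYZ had a ratio of 0.928 (0.871 to 0.989). The list's sums, mostly from LYZ, were 490 and 464 CPM.

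**Figure D3:**
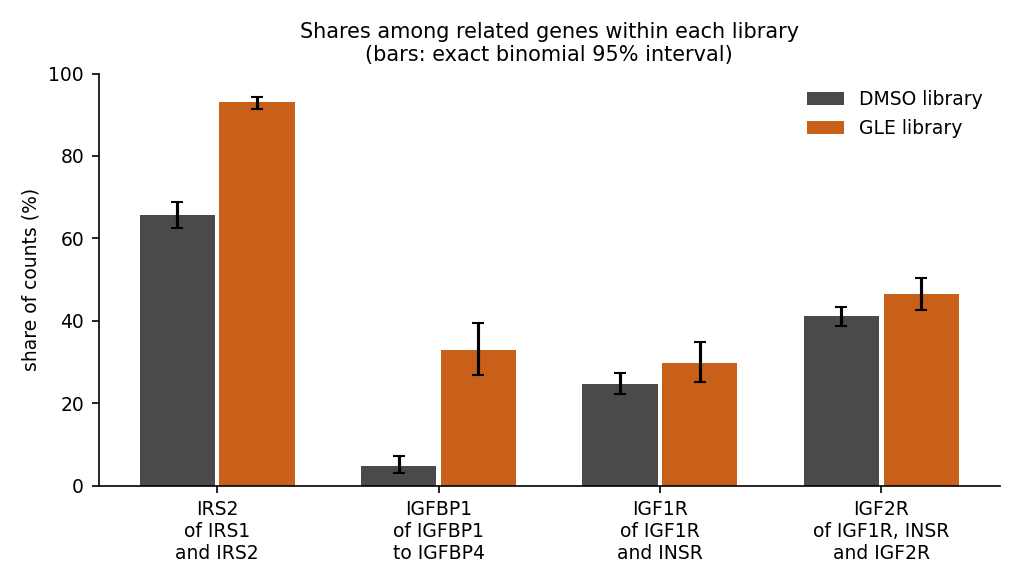
Share of counts (percent, axis from 0) of one member among related members within the DMSO and the GLE library, with exact binomial 95% intervals. IRS2 among the substrates went from 65.8% to 93.0% and IGFBP1 among the binding proteins from 4.78% to 32.9%, while the intervals of IGF1R among IGF1R and INSR overlap.

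Over all 10 members, the summed level was 551 CPM in the DMSO and 585 CPM in the GLE library. With TMM scaling the ratio was 1.06, and its interval of 1.003 to 1.12 just excludes 1. This sum was not recomputed with the other scalings, some of which lower every member's ratio, so the exclusion may depend on the scaling. Of the 7 measured members, 2 had intervals above 1 and 5 below 1. Over all measured genes these shares were 27.7% and 30.1%. IRS2 held 17.7% of the members' counts in the DMSO library and 51.2% in the GLE library. INSR held 26.0% and 12.4%.

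Other genes of the pathway were taken from 10 lists holding 139 genes, of which 101 were measured. Of these, 13 (12.9%) passed 2-fold upward and 2 (1.98%) downward, beside 9.54% and 10.5% of all measured genes. Scaled by total counts the numbers were 9 and 4. The median of the 101 genes with TMM scaling was a log2 ratio of -0.04, the same to 2 decimals as that of all measured genes. Intervals lay above 1 for 29 (28.7%) and below 1 for 29, close to the 27.7% and 30.1% of all measured genes. Of 8 other ligands and carriers, 0 were measured.

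Next to the receptors, 12 of 16 adaptors were measured and had a median log2 ratio of 0.26, with 2 beyond 2-fold upward and 0 downward. Over all measured genes 9.54% passed 2-fold upward and 10.5% downward. SOS2, an exchange factor that activates RAS, was 2.57-fold (1.95 to 3.41) and the docking protein GAB2 2.08-fold (1.35 to 3.23) higher, the latter 1.97-fold when scaled by total counts. Of 12 brakes on the receptors, 9 were measured, with a median of -0.04. CBLB, a ubiquitin ligase, was the only one beyond 2-fold, at 2.26-fold higher (1.60 to 3.21).

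Downstream of the substrates, 22 of 24 PI3K, AKT and mTOR genes were measured, and the median was -0.13. Of the 22, 2 lay beyond 2-fold upward and 1 downward, beside 9.54% and 10.5% of all measured genes. AKT1S1, an inhibitory subunit of mTOR complex 1, was 2.45-fold (1.51 to 4.03) and RHEB, the GTPase that activates this complex, 2.11-fold (1.55 to 2.88) higher, while RPTOR, its scaffold, was 2.26-fold lower (1.58 to 3.31). Scaled by total counts RHEB had a ratio of 1.99, inside 2-fold, and PIK3R1 and MLST8 had 0.496 and 0.491, beyond it. Of 19 brakes on this branch 15 were measured, and the median was 0.26. The whole interval lay above 2-fold for 2 of the 15, against 3.82% of all measured genes. By the ratio alone 5 lay beyond 2-fold upward and 0 downward, beside 9.54% and 10.5% of all measured genes. The 5 included SESN2, at 4.23-fold (3.83 to 4.68), and DDIT4, at 2.79-fold (2.37 to 3.29), both stress-induced inhibitors of mTOR complex 1. TRIB3, a pseudokinase that binds AKT, was 2.25-fold (1.93 to 2.64) and SESN3, a FOXO target, 2.32-fold (1.54 to 3.51) higher.

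Among FOXO factors and insulin-repressed genes, the class to which IRS2 and IGFBP1 belong, 9 of 14 were measured and the median was -0.14. FOXO3 was 2.36-fold higher (2.06 to 2.72) and the only one beyond 2-fold. Intervals lay above 1 for 2 of the 9 and below 1 for 2, against 27.7% and 30.1% of all measured genes. Of 8 genes that insulin induces in liver, 7 were measured, and 7 of 7 ratios were below 1, with a median of -0.47. Among all measured genes 52.4% had a log2 ratio below 0, with 0.5 added to each count. The interval lay below 1 for 5 of the 7 genes, against 30.1% of all measured genes. Such a median was not particular to this list. The 9 hepatocyte and epithelial markers had -0.48, with 6 intervals below 1 and 2 above. The IGF2 locus list had -0.43 and the proteolysis and processing list -0.40. FASN, fatty acid synthase, had 1723 and 603 counts and was 1.75-fold lower (1.59 to 1.92), and none of the 7 was beyond 2-fold.

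Around the ligand, 6 of 14 genes of IGFBP proteolysis and prohormone processing were measured, with 0 beyond 2-fold and a median of -0.40. CTSD, cathepsin D, had a ratio of 1.06 (0.940 to 1.19). Of 12 regulators of the IGF2 locus and message, 9 were measured, with a median of -0.43. Intervals lay below 1 for 5 of the 9 and above 1 for 2, against 30.1% and 27.7% of all measured genes. IGF2BP3, an oncofetal protein that binds IGF2 mRNA, was 2.15-fold lower (1.87 to 2.48), and PLAG1, a zinc finger activator of IGF2, 2.87-fold higher (1.96 to 4.23). H19, the imprinted non-coding gene 127850 bases from IGF2, had 22 and 24 counts, a ratio of 1.78 (0.957 to 3.33). Beside IGF2R, all 12 genes of mannose 6-phosphate sorting were measured, with a median of 0.16. GNPTG, a subunit of the enzyme that makes the mannose 6-phosphate tag, was 2.07-fold higher (1.44 to 2.995) and the only one beyond 2-fold, and 1.96-fold higher when scaled by total counts.

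**Figure D4:**
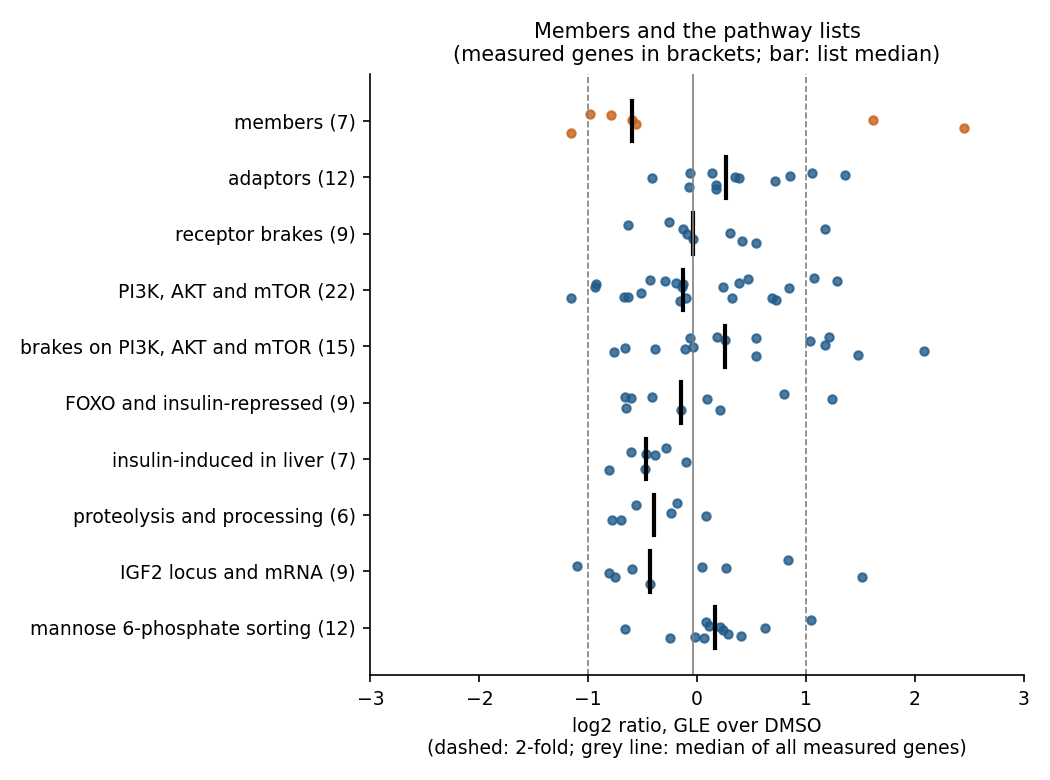
Log2 ratio of GLE over DMSO for each measured member and each measured gene of 9 pathway lists (points), with list medians (black bars), 2-fold lines (dashed) and the median of all measured genes (grey line). The members split into 5 below and 2 above 0, and all 7 measured insulin-induced genes lie below 0. The insulin-induced list has a median of -0.47, the IGF2 locus list -0.43 and the proteolysis and processing list -0.40.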

How the data were processed

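The authors deposited raw counts by gene symbol in a separate file for each library, without normalization. Per the submitters' processing notes, fastp, STAR, HTSeq and GRCh38 were used, while versions, annotation and the strand setting were not found in the sources used here. Overlapping and antisense genes therefore cannot be told apart.

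Counts were scaled with TMM in edgeR 4.0.16 (R 4.3.3), with factors of 1.03 for DMSO and 0.972 for GLE, and 0.5 was added to each count for log2 ratios. Groups came from sample titles. With 1 library a group no test was run, and a ratio of 2 or 0.5 marks the 2-fold line. Of 43424 symbols, 42739 matched the RefSeq table of GRCh38.p14, which gave positions and promoters. GENCODE release 29 gave exon overlaps. Simulated counts with 200 changed genes were used to test the calculation.

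Members and lists were chosen with earlier results of these data known. In each pathway list, up to 4 measured genes beyond 2-fold, by the interval bound nearest to 1, or otherwise the gene with most counts, were named. H19, INS-IGF2, IGF2-AS, PIK3R1, MLST8, SESN1 and, apart from IGFBP6, pathway-list genes under the minimum were named after their values were seen. The 10 alternatives were 5 scalings (among them DESeq2 1.42.0 size factors), minimums of 10, 100 or no counts, 2 added to each count, and whole intervals beyond 2-fold. Python 3.11.15, SciPy 1.17.1 and matplotlib 3.10.9 were used.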

Additional observations from a re-analysis of the deposited data

How the results depend on the processing

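No paired analysis was possible because each condition had 1 library. The ratios of 9 members stayed within their main counting intervals in 54 of 54 recomputed values. Most of these values came from the 5 scalings, which shift every member by the same factor. That factor was smaller than the width of each counting interval, so this outcome says little about stability. The 5 scalings gave 2.91 to 3.13 for IRS2, 5.27 to 5.68 for IGFBP1 and 0.422 to 0.455 for IRS1. INSR crossed the 2-fold line with the scaling, at 0.478 to 0.516, so members at least 2-fold lower numbered 2 in place of 1 when scaled by total counts, by upper-quartile factors, or by sizes that leave out mitochondrial and the 20 most abundant genes. A minimum of 10 counts also gave 2, by adding IGFBP4, as did no minimum, and the whole interval beyond 2-fold gave 0. Members at least 2-fold higher numbered 1 in place of 2 with a minimum of 100 counts, which IGFBP1 misses, and 4 with no minimum, which adds IGF2 and IGFBP2, the latter with 1 count. Over all genes, 1655, 613 and 4224 were higher and 1840, 579 and 3989 lower with minimums of 10, 100 and no counts, and 423 and 316 by whole intervals, against 1056 and 1164. Over the pathway lists, 23 were higher and 9 lower with no minimum, 3 and 0 by whole intervals, 5 lower with a minimum of 10 counts and 9 higher and 4 lower when scaled by total counts, against 13 and 2. In that scaling SESN1, GAB2, RHEB and GNPTG lay inside 2-fold, and PIK3R1 and MLST8 passed it downward. Total-count scaling put the median log2 ratio of all measured genes at -0.12, against -0.04. Of 90 recomputed list medians, 5 moved by 0.1 or more. The receptor brakes had 0.30 with a minimum of 10 counts and 0.13 with none, against -0.04, the FOXO and insulin-repressed genes -0.03 in both, against -0.14, and the IGF2 locus list -0.60 with a minimum of 100, against -0.43. The depth of IGF2, IGFBP2 and IGFBP4, under 30 counts each, limits what their values show.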

Other observations

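Several genes of the axis lay under 30 counts. Apart from IGFBP6, which the naming rule gave, they were named after their values were seen. PCK1, which encodes the gluconeogenic enzyme that insulin represses, had 0 counts in the DMSO and 14 in the GLE library. Its GLE level was 7.63 times the level of 3 counts in the DMSO library. This is a point value that leaves out the counting error of the 14, so it is not a lower limit. In the same list G6PC1, another gluconeogenic gene, had 0 counts in both libraries, and PDK4 had 12 and 8, a ratio of 1.09 (0.386 to 2.90). DEPTOR, an inhibitor of mTOR, had 12 and 1 counts, a ratio of 0.136 (0.00319 to 0.920). SOCS3, a brake on cytokine and insulin receptors, had 5 and 16 counts, a ratio of 5.23 (1.83 to 18.3). IGFBP6, a binding protein that prefers IGF2, had 9 and 12 counts, a ratio of 2.18 (0.843 to 5.85), a difference not detectable at this depth. IGF1, the other IGF ligand, had 4 and 1 counts, and INS had 0 in both libraries.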
